A study of Mus musculus with 8 samples.

Results

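The 10 genes described here encode the enzymes of energy supply that are particular to, or prominent in, haploid male germ cells: Hk1, Aldoart1, Gapdhs, Pgk2, Pgam2, Eno4 and Ldhc of glycolysis, Pdha2 of pyruvate oxidation, Tktl2 of the transketolase family and Atp1a4 of the sodium pump. They were taken by symbol from the platform annotation, each on the transcript cluster with a single symbol and the highest mean, and all 10 were found among 19938 genes measured on 35512 clusters. Round spermatids, haploid cells that have finished meiosis and not yet elongated, had been enriched from testes of adult C57BL/6 mice on a gradient of bovine serum albumin, and their total RNA was hybridised to Affymetrix arrays, 2 per genotype and 8 in all. All mice carried altered alleles of Piwil1, the gene of the PIWI protein MIWI. A wild-type allele was present in MIWI +/-, paired with a null one, and in MIWI +/KI, paired with a knock-in one. It was absent from MIWI -/-, where both alleles were null, and from MIWI -/KI, where the null allele faced the knock-in. No group was wild-type on both chromosomes. The labels do not say what the knock-in changes, although the series title concerns the catalytic activity of MIWI. Nor do they say whether an array stands for 1 animal or a pool, so p-values measure the spread between preparations.

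Sperm draw much of the ATP for swimming from glycolysis along the tail, and germ cells use isozymes for it that body cells lack. Some of them, such as Pgk2 and Pdha2, are intronless copies of X-linked genes and act when the X chromosome is silenced in meiosis. Others, such as Gapdhs and Ldhc, are old duplicates. Many haploid genes are switched on through cyclic AMP response elements bound by the activator CREM, and many of their transcripts are stored before they are translated.

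The arrays were compared first. Array medians lay between 66.6 and 71.8. Within a genotype the log2 values had a Pearson r of 0.970 to 0.9951, and between genotypes of 0.9598 to 0.9885. The MIWI -/KI arrays were the least alike pair, and on the second principal component MIWI -/KI replicate 1 and MIWI -/- replicate 2 lay with the MIWI +/KI arrays. Of 15 markers of haploid spermatids all had a median intensity over 200, against 12 of 14 for spermatocytes, 2 of 10 for spermatogonia, 2 of 11 for Sertoli cells, 2 of 8 for peritubular and vascular cells, and none of 6 for Leydig cells or of 6 for blood and macrophages. No marker was at 0, and intensity on these arrays has no true zero.

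Sequence upstream of the start sites is shown for 5 of the genes: Gapdhs, Hk1, Atp1a4 and Tktl2, which differed most between genotypes, and Ldhc, which did not pass the test in any comparison. Each run is the 250 bases before an annotated start, 5′ to 3′ on the gene's strand, from RefSeq on GRCm38.p6. Capitals mark 2 sets of letters, TGATGTCA with its reverse complement TGACATCA, and the core letters TGACG with their reverse complement CGTCA.
Gapdhs, chr7:30743682-30743931, minus strand: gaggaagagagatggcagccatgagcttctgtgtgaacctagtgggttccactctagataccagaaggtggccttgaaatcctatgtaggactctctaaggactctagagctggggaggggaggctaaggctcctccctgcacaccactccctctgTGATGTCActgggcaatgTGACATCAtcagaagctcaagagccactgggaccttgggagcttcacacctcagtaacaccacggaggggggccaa
Hk1, chr10:62379909-62380158, minus strand: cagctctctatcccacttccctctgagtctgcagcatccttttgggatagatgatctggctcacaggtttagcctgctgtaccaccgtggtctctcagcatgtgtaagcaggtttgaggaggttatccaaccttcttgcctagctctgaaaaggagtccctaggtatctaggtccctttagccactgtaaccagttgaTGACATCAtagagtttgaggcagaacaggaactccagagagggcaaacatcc
Ldhc, chr7:46861013-46861262, plus strand: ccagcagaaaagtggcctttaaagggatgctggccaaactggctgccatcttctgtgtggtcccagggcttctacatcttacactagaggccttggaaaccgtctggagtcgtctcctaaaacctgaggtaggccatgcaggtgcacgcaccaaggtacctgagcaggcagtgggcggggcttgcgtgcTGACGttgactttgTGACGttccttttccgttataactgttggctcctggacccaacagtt
Atp1a4, chr1:172258425-172258674, minus strand: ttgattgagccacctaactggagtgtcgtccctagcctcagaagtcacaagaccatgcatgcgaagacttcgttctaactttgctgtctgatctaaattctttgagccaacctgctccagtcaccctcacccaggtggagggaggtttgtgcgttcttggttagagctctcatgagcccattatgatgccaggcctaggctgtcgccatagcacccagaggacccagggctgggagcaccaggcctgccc
Tktl2, chr8:66511490-66511739, plus strand: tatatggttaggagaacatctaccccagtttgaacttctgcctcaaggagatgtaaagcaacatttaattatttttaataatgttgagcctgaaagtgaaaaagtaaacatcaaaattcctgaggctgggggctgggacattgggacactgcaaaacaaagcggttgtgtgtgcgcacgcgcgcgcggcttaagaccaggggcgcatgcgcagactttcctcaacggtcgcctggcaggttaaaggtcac

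The full cyclic AMP response element TGACGTCA was in none of the 12 windows of 9 of the genes, on either strand, and in 1.55% of all 32851 windows of the table. TGATGTCA, which differs from it by 1 letter and was chosen after these sequences had been read, was in 2.93% of all windows. Gapdhs held it as TGATGTCA and again as TGACATCA, at 94 and 76 bases before the start shown, and also in both orientations, at 70 and 52 bases, before its second annotated start. Both windows of Gapdhs share long runs of letters, so their matches are not separate observations. Among all windows, 0.186% held this motif more than once, but that share is no test of a motif chosen after reading. Hk1 held it at 52 bases before the start shown and not before its other annotated start, and Pgam2 held it at 225 bases. Ldhc held the core letters TGACG at 61 and 47 bases before the start shown, and not before its other annotated start. Of all windows 17.8% held that motif and 3.9% held it more than once. These matches describe letters in a window, and the arrays do not say from which start a transcript came.

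In MIWI -/- against MIWI +/-, which asks what loss of MIWI does to these transcripts, 5 of the 10 genes fell and 1 rose. Of all 19938 genes 6.13% were called, 3.53% lower and 2.60% higher. Gapdhs, Atp1a4, Aldoart1, Pgk2 and Hk1 fell, by factors of 1.62 to 2.46, and Tktl2 rose 2.12-fold. In MIWI -/KI against MIWI +/- the falls of Gapdhs, Hk1 and Atp1a4 and the rise of Tktl2 passed (4 of 10, with 6.23% of all genes called, 3.12% lower and 3.11% higher), and in MIWI -/KI against MIWI +/KI the falls of Gapdhs and Hk1 did (2 of 10, with 2.43% of all genes called, 1.29% lower and 1.14% higher). The first 2 comparisons share the MIWI +/- arrays. The median log2 difference of the 10 genes was -0.531, -0.453 and -0.051 in the 3 comparisons, beside 0.010, -0.004 and -0.033 over all genes. Calls are at adjusted p under 0.05 by limma, adjusted by the Benjamini-Hochberg method across the 35512 clusters. Folds are taken from means of log2 intensity. The first count was 2 without MIWI +/- replicate 1 and 1 without MIWI +/- replicate 2, and the second was 2 without MIWI +/- replicate 2. The third was 0 without either MIWI +/KI array and 1 without either MIWI +/- array. It was 4 when MIWI -/KI replicate 1 was left out and 1 when replicate 2 was. Calls over all genes moved with these counts, between 375 and 2043 in the first comparison, 344 and 2775 in the second, and 42 and 2664 in the third. Fewer cells of a type and less RNA per cell cannot be told apart in RNA of a cell fraction.

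**Figure D1:**
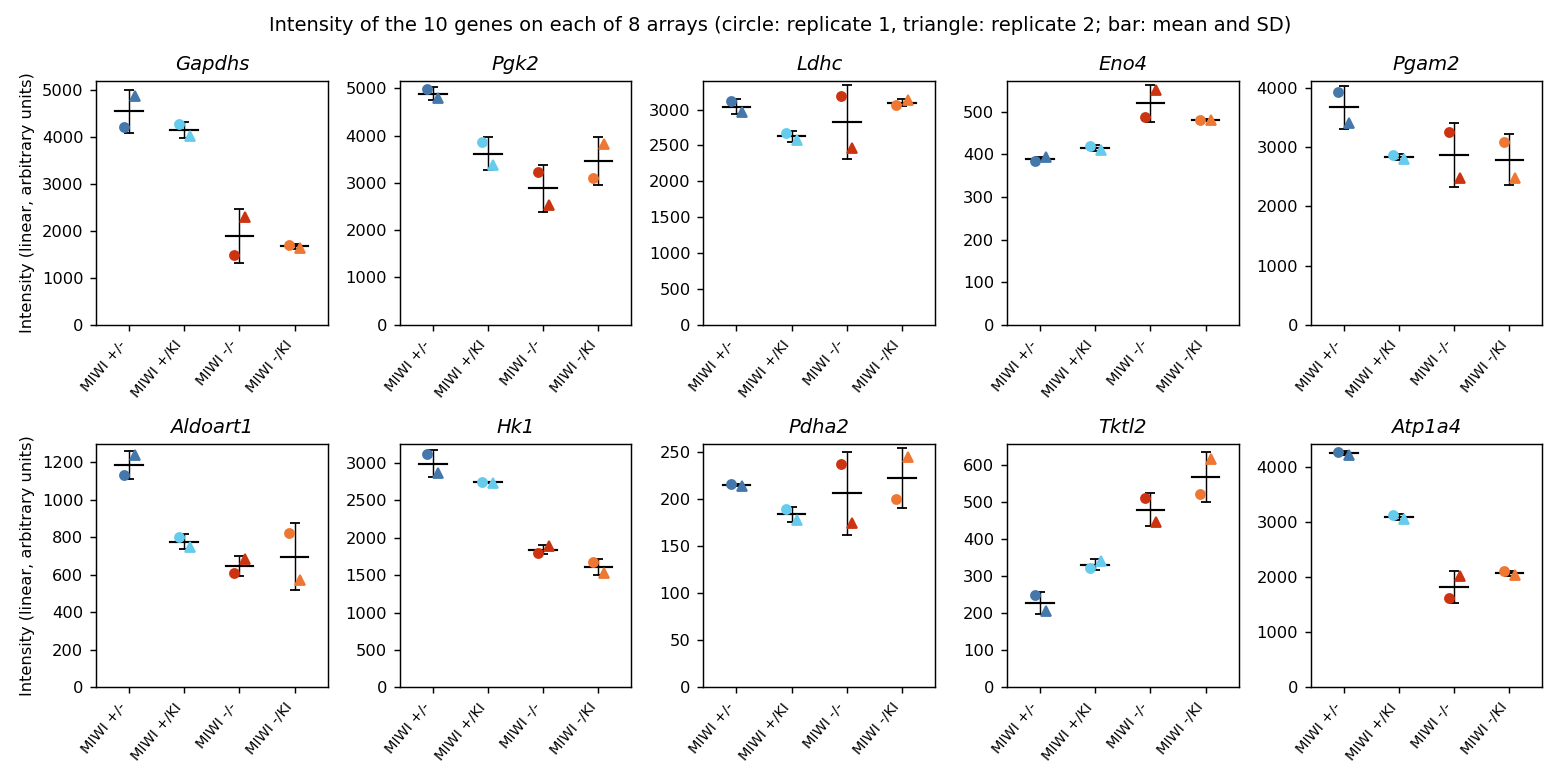
Intensity of each of the 10 genes (vertical axis, linear, arbitrary units, from 0) on the 8 arrays by genotype (horizontal axis), with circles for replicate 1, triangles for replicate 2, and bars for the mean and SD of 2 arrays. Gapdhs, Hk1 and Atp1a4 are lower, and Eno4 and Tktl2 higher, on each of the 4 arrays without a wild-type allele than on any with one.

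The abundance of several haploid markers moved in the same comparisons. Of the 15 haploid spermatid markers 6 fell against MIWI +/- both in MIWI -/- and in MIWI -/KI, namely Tnp1, Tnp2, Prm1, Prm2, Tssk2 and Odf1, while Acr rose in MIWI -/- (0.77, SE 0.14, adjusted p = 0.0208) and stood at 0.40 in MIWI -/KI (SE 0.14, adjusted p = 0.199). Summed over the 15, intensity ran from 29141 to 37934 on arrays with a wild-type allele and from 17758 to 21738 without. The largest falls within this sum were those of Tnp1, Tnp2, Prm1 and Prm2. Prm2 gave 5897 to 7285 with a wild-type allele and 927 to 1837 without, and Tnp2 3702 to 5928 and 578 to 1558. Of the 15, 8 were not called in MIWI -/- and 9 were not in MIWI -/KI. The sum therefore does not describe the list as a whole. The summed spermatocyte markers ran from 9214 to 10559 with a wild-type allele and from 9314 to 11558 without. Those of spermatogonia ran from 1537 to 1728 and from 1694 to 1986, of Sertoli cells from 1624 to 2189 and from 1143 to 1504, of Leydig cells from 343 to 514 and from 449 to 1022, of peritubular and vascular cells from 1688 to 2700 and from 1039 to 1280, and of blood and macrophages from 413 to 504 and from 449 to 553. Against MIWI +/-, call counts of these lists were equal in MIWI -/- and MIWI -/KI. Spermatocyte markers had 1 lower and 1 higher (log2 differences -1.49 to 0.99 in MIWI -/-). Of 11 Sertoli cell markers 3 were lower and none higher (-1.31 to -0.001 in MIWI -/-). Spermatogonia had 1 higher, blood and macrophages 1 lower, peritubular and vascular cells 1 each way, and Leydig cells none. Of all genes 3.53% were lower and 2.60% higher in MIWI -/-, and 3.12% and 3.11% in MIWI -/KI. The fall of the peritubular and vascular sum lay in Actg2, a smooth muscle actin, at 1810 and 1969 in MIWI +/-, 998 and 917 in MIWI +/KI, 268 and 358 in MIWI -/-, and 320 and 287 in MIWI -/KI. Its median over the arrays was 637, beside 102 for the median marker of that list. The sum therefore follows this gene and not the list as a whole. Acta2 of the same list rose in MIWI -/- (0.68, SE 0.15, adjusted p = 0.0445) and in MIWI -/KI (1.13, SE 0.15, adjusted p = 0.00545). The part of these shifts in the differences below was not tested.

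Gapdhs encodes the glyceraldehyde-3-phosphate dehydrogenase of sperm, which is bound to the fibrous sheath of the tail and is needed for sperm motility. Its intensity was 4205 and 4860 in MIWI +/-, 4257 and 4019 in MIWI +/KI, 1483 and 2284 in MIWI -/-, and 1704 and 1632 in MIWI -/KI. The groups with and without a wild-type allele did not overlap, and the MIWI -/- arrays were the pair farthest apart. Against MIWI +/-, Gapdhs fell on the log2 scale by 1.30 in MIWI -/- (SE 0.19, 2.46-fold, adjusted p = 0.00800) and by 1.44 in MIWI -/KI (SE 0.19, 2.71-fold, adjusted p = 0.00531). Against MIWI +/KI it fell by 1.31 in MIWI -/KI (SE 0.19, 2.48-fold, adjusted p = 0.0188). The effects of losing the wild-type allele beside a knock-in and beside a null allele differed by -0.01 (SE 0.27, 95% interval -0.64 to 0.61). The call in MIWI -/- was lost without MIWI +/- replicate 2 (adjusted p = 0.0849), as was that in MIWI -/KI against MIWI +/- (0.0584). Against MIWI +/KI the call needed both MIWI +/KI arrays (0.197 without replicate 1, 0.151 without replicate 2) and MIWI -/KI replicate 2 (0.0846 without it). Among 45 pairs of the 10 genes, the pattern of Gapdhs over the 8 arrays was most like that of Hk1 (Pearson r = 0.960).

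Hk1 encodes hexokinase 1, which takes glucose into glycolysis and has transcripts of its own in spermatogenic cells. Its cluster gave 3121 and 2861 in MIWI +/-, 2745 and 2740 in MIWI +/KI, 1802 and 1887 in MIWI -/-, and 1681 and 1531 in MIWI -/KI. All 4 arrays without a wild-type allele lay below the 4 with one. Hk1 fell by 0.70 in MIWI -/- (SE 0.11, 1.62-fold, adjusted p = 0.0107) and by 0.90 in MIWI -/KI (SE 0.11, 1.86-fold, adjusted p = 0.00370) against MIWI +/-, and by 0.77 in MIWI -/KI against MIWI +/KI (SE 0.11, 1.71-fold, adjusted p = 0.0165). The first call was lost without MIWI +/- replicate 1 (adjusted p = 0.122) or 2 (0.0727), and the second without MIWI +/- replicate 1 (0.0542). The third was lost without MIWI +/- replicate 1 (0.0505) or 2 (0.0506) or MIWI +/KI replicate 1 (0.226) or 2 (0.219), and when the fit held the 2 genotypes alone (0.0796). Cluster and symbol are not one to one here. A second cluster carries Hk1 as its single symbol through 1 accession, which stands on the first cluster too and on 16 clusters that name Hk1 together with the ribosomal protein gene Rpl17. The second cluster gave 1328 and 1376 in MIWI +/-, 1206 and 1152 in MIWI -/-, 1319 and 1189 in MIWI +/KI, and 1080 and 1539 in MIWI -/KI, with a log2 difference of -0.20 (SE 0.17, adjusted p = 0.753) in MIWI -/- against MIWI +/-. With the mean of both clusters Hk1 stood at -0.45 in MIWI -/- (adjusted p = 0.0797), -0.48 in MIWI -/KI (0.0610) and, against MIWI +/KI, -0.37 (0.175), so none of its 3 falls passed. The second cluster may not measure Hk1, and which transcript it reads was not tested.

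Aldoart1 is an intronless copy of the aldolase A gene that is expressed in the testis. It gave 1133 and 1240 in MIWI +/-, and 804 and 750 in MIWI +/KI, 609 and 686 in MIWI -/-, and 823 and 571 in MIWI -/KI. The MIWI +/- arrays were above all others, while MIWI +/KI and MIWI -/KI overlapped. The fall of 0.87 in MIWI -/- (SE 0.19, 1.83-fold, adjusted p = 0.0403) was called, and the difference of -0.79 in MIWI -/KI against MIWI +/- was not (SE 0.19, adjusted p = 0.0586, but 0.00851 without MIWI -/KI replicate 1). Against MIWI +/KI it stood at -0.18 (adjusted p = 0.683). Leaving out either array of MIWI +/- (adjusted p = 0.177 and 0.263 for replicates 1 and 2), of MIWI -/- (0.136 and 0.121) or of MIWI +/KI (0.100 for each) ended the call in MIWI -/-, and with the arrays quantile normalized again it was 0.0597. How far the probes tell it from the aldolase A gene and its other testis copy, Aldoart2, was not examined.

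Pgk2 encodes the phosphoglycerate kinase of meiotic and haploid germ cells, which takes the place of X-linked Pgk1. Its intensity was 4981 and 4788 in MIWI +/-, 3860 and 3380 in MIWI +/KI, 3234 and 2528 in MIWI -/-, and 3099 and 3826 in MIWI -/KI. The MIWI +/- pair was highest, and the other 3 genotypes were closer together, with MIWI -/KI overlapping both MIWI +/KI and MIWI -/-. Pgk2 fell by 0.77 in MIWI -/- (SE 0.15, 1.71-fold, adjusted p = 0.0295). It stood in MIWI -/KI at -0.50 against MIWI +/- (SE 0.15, adjusted p = 0.131) and at -0.07 against MIWI +/KI (SE 0.15, adjusted p = 0.858). Its call in MIWI -/- was lost without either MIWI +/- array (adjusted p = 0.186 and 0.160 for replicates 1 and 2), either MIWI +/KI array (0.0644 for each) or MIWI -/- replicate 2 (0.153), with each array centred on its median (0.0601), without the intensity trend (0.0510), and when the fit held the 2 genotypes alone (0.0531).

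Of the 10 genes, Pgam2, Eno4, Ldhc and Pdha2 did not pass the test in any comparison. Pgam2, the phosphoglycerate mutase of muscle and testis, gave 3929 and 3417 in MIWI +/-, 2876 and 2795 in MIWI +/KI, 3252 and 2487 in MIWI -/-, and 3095 and 2483 in MIWI -/KI, so MIWI +/- was above the other genotypes, which overlapped each other. Its log2 difference was -0.37 in MIWI -/- (SE 0.16, adjusted p = 0.338) and -0.40 in MIWI -/KI (SE 0.16, adjusted p = 0.273). Eno4 encodes an enolase required for sperm motility. It gave 385 and 393 in MIWI +/-, 421 and 410 in MIWI +/KI, 489 and 551 in MIWI -/-, and 482 and 480 in MIWI -/KI. Every array without a wild-type allele was above every array with one, but by little: the log2 difference was 0.42 in MIWI -/- (SE 0.14, adjusted p = 0.170), 0.31 in MIWI -/KI against MIWI +/- (SE 0.14, adjusted p = 0.344) and 0.21 against MIWI +/KI (SE 0.14, adjusted p = 0.507).

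Ldhc, the lactate dehydrogenase of testis and sperm, gave 3115 and 2966 in MIWI +/-, 2679 and 2575 in MIWI +/KI, 3195 and 2464 in MIWI -/-, and 3061 and 3131 in MIWI -/KI. The 2 MIWI -/- arrays spanned the values of all other groups. No comparison called it, and the 95% interval of its log2 difference from MIWI +/- was -0.42 to 0.19 in MIWI -/- and -0.28 to 0.33 in MIWI -/KI. Pdha2, the germ cell form of the E1 alpha subunit of pyruvate dehydrogenase, was dim, at 216 and 214 in MIWI +/-, 190 and 178 in MIWI +/KI, 238 and 175 in MIWI -/-, and 200 and 245 in MIWI -/KI. Here too the MIWI -/- arrays spanned nearly the whole range. Its 95% intervals against MIWI +/- were -0.52 to 0.37 in MIWI -/- and -0.40 to 0.49 in MIWI -/KI.

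Tktl2 was the 1 gene of the 10 that rose. It encodes a transketolase-like protein, a relative of the enzyme that moves carbon units in the pentose phosphate pathway. Its intensity was 248 and 205 in MIWI +/-, 321 and 341 in MIWI +/KI, 509 and 447 in MIWI -/-, and 520 and 615 in MIWI -/KI. The genotypes stood in that order without overlap. Against MIWI +/- it rose by 1.08 in MIWI -/- (SE 0.17, 2.12-fold, adjusted p = 0.0108) and by 1.33 in MIWI -/KI (SE 0.17, 2.51-fold, adjusted p = 0.00471). Of the neighbours in the order, MIWI +/KI against MIWI +/- stood at 0.55 (SE 0.17, adjusted p = 0.263) and MIWI -/KI against MIWI -/- at 0.24 (SE 0.17, adjusted p = 0.998), and MIWI -/- was not compared with MIWI +/KI. MIWI -/KI against MIWI +/KI stood at 0.77 (SE 0.17, adjusted p = 0.0714, but 0.0290 without MIWI -/KI replicate 1). The call in MIWI -/- was lost without MIWI +/- replicate 1 (adjusted p = 0.0515) or 2 (0.119) or MIWI -/- replicate 1 (0.0510), and that in MIWI -/KI without MIWI +/- replicate 2 (0.0584).

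Atp1a4 encodes the alpha 4 subunit of the sodium and potassium pump, the form found in sperm, where the ion gradient it builds is needed for motility. Its intensity was 4272 and 4220 in MIWI +/-, 3133 and 3056 in MIWI +/KI, 2104 and 2041 in MIWI -/KI, and 1614 and 2024 in MIWI -/-. No 2 genotypes overlapped, and replicates were close except in MIWI -/-. Against MIWI +/- it fell by 1.23 in MIWI -/- (SE 0.13, 2.35-fold, adjusted p = 0.00127) and by 1.03 in MIWI -/KI (SE 0.13, 2.05-fold, adjusted p = 0.00354), and both calls held when any 1 array was left out. The step from MIWI +/- to MIWI +/KI was -0.46 (SE 0.13, adjusted p = 0.228) and from MIWI +/KI to MIWI -/KI -0.58 (SE 0.13, adjusted p = 0.0686). The latter passed without MIWI -/- replicate 1 (adjusted p = 0.0299) or 2 (0.0314) or MIWI -/KI replicate 1 (0.0474).

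**Figure D2:**
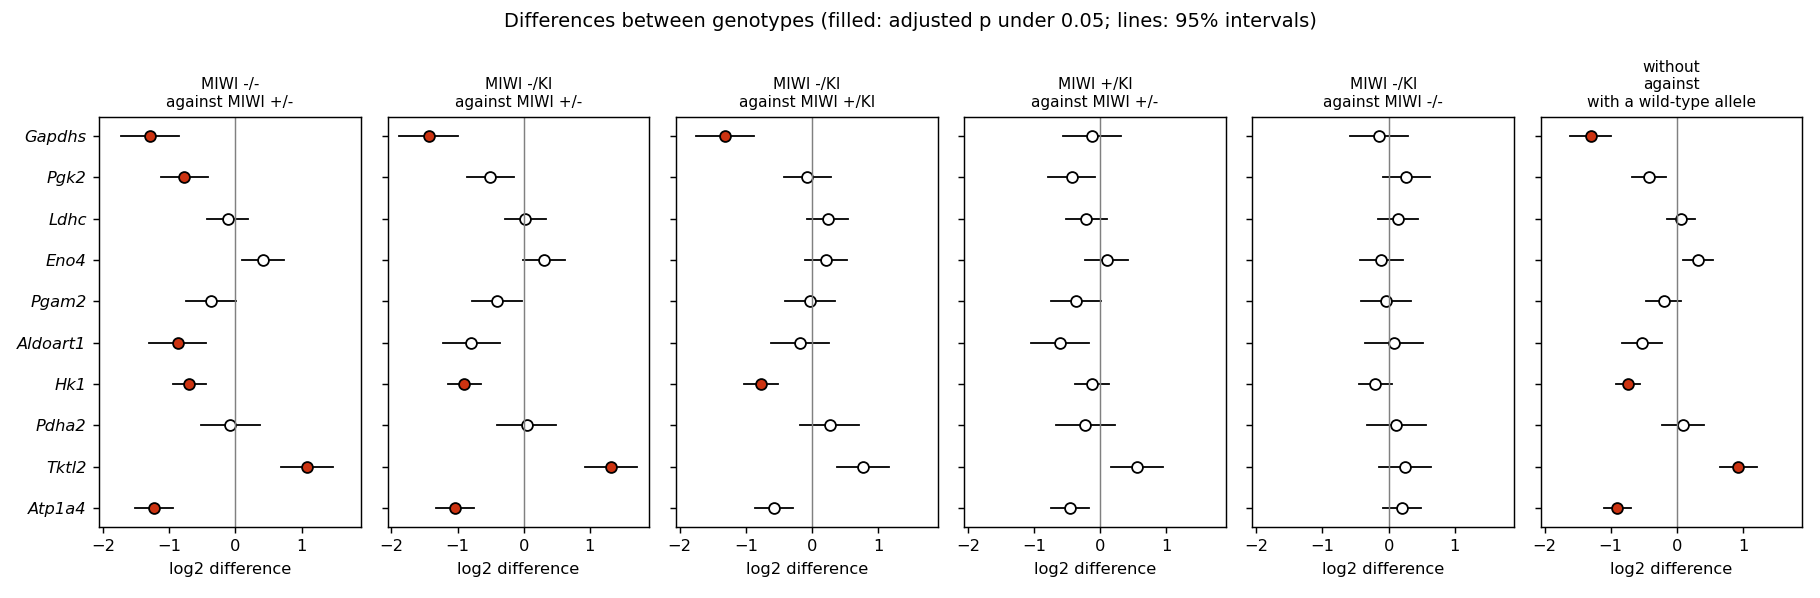
Log2 difference of mean intensity (horizontal axis) of each gene (vertical axis) in 6 comparisons, with lines for 95% intervals and filled points for adjusted p under 0.05. Gapdhs is filled and negative in the 3 comparisons of a genotype without a wild-type allele against one with it, with values from -1.44 to -1.30, and no point is filled in MIWI +/KI against MIWI +/- or in MIWI -/KI against MIWI -/-.

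Comparing MIWI +/KI with MIWI +/- asks whether the knock-in allele differs from the null allele beside a wild-type one. None of the 10 genes passed in limma, and 0.0953% of all genes did, 0.0702% lower and 0.0251% higher. Arrays of the 2 genotypes did not overlap for 9 of the 10 genes, 7 lower and 2 higher, and for 56.9% of all genes, 26.0% lower and 30.9% higher. At an unadjusted p under 0.05 the count was 4 of 10, for Aldoart1 (-0.61, SE 0.19), Atp1a4, Pgk2 (-0.44, SE 0.15) and Tktl2, against 2335 of 19938 genes. With array weights all 4 of them passed (adjusted p from 0.0177 to 0.0420), and with only these 4 arrays in the fit Aldoart1 (0.0260), Atp1a4 (0.0227) and Pgk2 (0.0430) did. Those fits called 1799 and 1474 of 19938 genes, in place of 19. The weights were equal for both arrays of a genotype, so they set genotypes apart and not single arrays. They were 2.74 in MIWI +/KI, 1.36 in MIWI +/-, 0.778 in MIWI -/- and 0.344 in MIWI -/KI. Gapdhs (-0.13, 95% interval -0.57 to 0.31) and Hk1 (-0.12, 95% interval -0.38 to 0.13) were nearest to 0 among the falling genes, although neither interval bounds the difference tightly.

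MIWI -/KI against MIWI -/- asks whether the knock-in allele as the sole allele that is not null differs from having none. No gene of the 10 passed in limma, none had an unadjusted p under 0.05, and no gene of the whole table was called (0%, with 908 of 19938 at an unadjusted p under 0.05). The differences ran from -0.20 for Hk1 (95% interval -0.45 to 0.05) to 0.27 for Pgk2 (95% interval -0.09 to 0.62). For Gapdhs the interval was -0.58 to 0.30 and for Atp1a4 -0.09 to 0.49.

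Without against with a wild-type allele, averaged over both backgrounds, 4 of the 10 genes were called, with 8.26% of all genes, 3.93% lower and 4.33% higher. Gapdhs fell by 1.30 (SE 0.13, adjusted p = 0.00114), Atp1a4 by 0.91 (SE 0.09, adjusted p = 0.000858) and Hk1 by 0.74 (SE 0.08, adjusted p = 0.00122), and Tktl2 rose by 0.93 (SE 0.12, adjusted p = 0.00325). Each of these 4 calls held when any 1 array was left out. Aldoart1 (-0.53, SE 0.13, adjusted p = 0.0592) and Pgk2 (-0.42, SE 0.11, adjusted p = 0.0640) were near the threshold. Aldoart1 passed without MIWI -/KI replicate 1 (0.00704), and Pgk2 without MIWI -/- replicate 1 (0.0410) or MIWI -/KI replicate 2 (0.0440). The 4 arrays of a side did not overlap those of the other for 5 of the 10 genes, 3 lower and 2 higher, as for 15.9% of all genes, 6.54% lower and 9.38% higher. With 2 arrays a side such a gap was common: it held for 8 of the 10 genes (6 lower, 2 higher) and 49.4% of all genes (22.4% lower, 27.0% higher) in MIWI -/- against MIWI +/-, and for 8 of the 10 (6 lower, 2 higher) and 41.4% of all genes (18.2% lower, 23.2% higher) in MIWI -/KI against MIWI +/-. In MIWI -/KI against MIWI +/KI it held for 7 of the 10 (3 lower, 4 higher) and 49.1% of all genes (24.1% lower), and in MIWI -/KI against MIWI -/- for 4 of the 10 (2 lower, 2 higher) and 22.8% of all genes (10.9% lower, 11.9% higher).

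The difference between the 2 effects of losing the wild-type allele, beside a knock-in and beside a null allele, was tested for each gene. None of the 10 passed in limma (0% of all genes called). At an unadjusted p under 0.05 there were 3 of 10, for Pgk2 (0.70, SE 0.22), Aldoart1 (0.70, SE 0.27) and Atp1a4 (0.65, SE 0.18), against 2585 of 19938 genes.

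Related isozymes were read beside them, most of them forms of body cells, with 1 further testis copy, Aldoart2. Of 22 listed, 15 were measured on a cluster of their own, and Gapdh and the other alpha subunits of the sodium pump were not. In MIWI -/- none of the body cell forms was called, and 1 of the 15 fell, Aldoart2 (-0.75, SE 0.17, adjusted p = 0.0490), the second testis copy of aldolase A, which gave 1863 and 1568 in MIWI +/- and 1067 and 970 in MIWI -/-. The list's median was -0.123. Aldoart2 also fell in MIWI -/KI against MIWI +/- (-0.96, SE 0.17, adjusted p = 0.0180), where the median was -0.072. Aldoart2 was not called in MIWI -/- when any 1 array other than those of MIWI -/KI was left out (adjusted p from 0.0972 to 0.321). The call in MIWI -/KI was lost without MIWI +/- replicate 1 (0.161) or 2 (0.0750) or MIWI -/KI replicate 2 (0.0549).

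None of the other counterparts passed in MIWI -/- or MIWI -/KI against MIWI +/-. Without against with a wild-type allele, averaged over both backgrounds, 2 of the 15 were called, both lower, beside 3.93% of all genes called lower. Aldoart2 alone cannot make up that count, so forms of body cells were not all uncalled there. In Hk2 the arrays ran from 125 to 148 with a wild-type allele and from 86 to 105 without. Beside Pgk2, Pgk1 stood at -0.41 (SE 0.17, adjusted p = 0.283) in MIWI -/- and 0.15 (SE 0.17, adjusted p = 0.788) in MIWI -/KI. Beside Ldhc, Ldha stood at 0.19 in both (SE 0.10, adjusted p = 0.447 and 0.440). Beside Hk1, Hk2 stood at -0.60 (SE 0.17, adjusted p = 0.0972) and -0.53 (SE 0.17, adjusted p = 0.145), and in MIWI -/- it was called without MIWI -/KI replicate 1 (0.0421) or 2 (0.0413), as it was in MIWI -/KI without MIWI -/KI replicate 1 (0.0452), where 3 of the 15 were called, and 2775 of 19938 genes in place of 1243. Aldoa stood at -0.36 (SE 0.21, adjusted p = 0.532) and -0.68 (SE 0.21, adjusted p = 0.140). Tkt, Pdha1, Pgam1 and Eno3 lay between -0.08 and 0.24 in both. Ldhb stood at -0.73 and -0.89 (SE 0.33, adjusted p = 0.348 and 0.225), Tktl1 at -0.45 and -0.11 (SE 0.30, adjusted p = 0.605 and 0.933) and Eno2 at -0.28 and -0.15 (SE 0.17, adjusted p = 0.522 and 0.785). Aldoc, Hk3 and Hkdc1 lay between -0.12 and 0.02. Tkt, Eno2, Hk3 and Hkdc1, at 41 to 65, lay below the median of every array, so their values carry little weight.

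Of 11 other glycolytic genes measured, 3 fell and none rose in MIWI -/-, with a list median of -0.339. Pfkm (0.43, SE 0.14, adjusted p = 0.143) and Pfkp (0.23, SE 0.14, adjusted p = 0.532), both subunits of phosphofructokinase, stood higher without passing. Pkm, the pyruvate kinase of most tissues, went from 1676 and 1803 in MIWI +/- to 448 and 498 in MIWI -/- (-1.88, SE 0.15, adjusted p = 0.000436). Pfkfb4 encodes a testis form of the enzyme that sets the level of a fructose bisphosphate that activates phosphofructokinase. It went from 633 and 530 to 170 and 161 (-1.81, SE 0.16, adjusted p = 0.000637). Its relative Pfkfb3 went from 497 and 541 to 215 and 232 (-1.21, SE 0.16, adjusted p = 0.00452). The same 3 fell in MIWI -/KI against MIWI +/-, and Pkm (-0.97, SE 0.15, adjusted p = 0.0232) and Pfkfb4 (-0.87, SE 0.16, adjusted p = 0.0390) against MIWI +/KI. Leaving out either MIWI +/- array, either MIWI +/KI array or MIWI -/KI replicate 2 ended both of those calls (adjusted p from 0.0654 to 0.380). Pfkfb3 was not called in MIWI -/- without MIWI +/- replicate 2 (0.0678), nor in MIWI -/KI against MIWI +/- without MIWI +/- replicate 1 (0.0646) or 2 (0.0879). Without MIWI -/KI replicate 1, 5 of the 11 were called in MIWI -/KI, while calls over all genes went from 1243 to 2775 of 19938.

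Among 12 measured testis isoforms and partners of mitochondrial energy supply, 3 fell and none rose in MIWI -/-, with a list median of -0.006. Oxct2a, a germ cell enzyme of ketone body use, gave 4229 and 3973 in MIWI +/-, 2773 and 2549 in MIWI +/KI, 470 and 462 in MIWI -/-, and 656 and 532 in MIWI -/KI. It fell in MIWI -/- (-3.14, SE 0.14, adjusted p = 2.86e-05), in MIWI -/KI against MIWI +/- (-2.79, SE 0.14, adjusted p = 8.73e-05) and against MIWI +/KI (-2.17, SE 0.14, adjusted p = 0.000800). Its near copy Oxct2b was listed on clusters with several symbols, so the signal of the pair may be mixed. Gpd2, the mitochondrial glycerol phosphate dehydrogenase, stood at -1.16 (SE 0.11, adjusted p = 0.00103) and Acsbg2, a fatty acid activating enzyme of testis, at -1.13 (SE 0.15, adjusted p = 0.00446) in MIWI -/-, and both fell in MIWI -/KI against MIWI +/- too. Acsbg2 was not called in MIWI -/- without MIWI +/- replicate 1 (0.0546) or 2 (0.0550).

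Partners of the sodium pump had 1 fall among 11 in MIWI -/-, with a median of -0.152. It was Atp1b3, a beta subunit, which went from 4042 and 3685 in MIWI +/- to 2132 and 1868 in MIWI -/- (-0.95, SE 0.11, adjusted p = 0.00260) and to 2171 and 2193 in MIWI -/KI (-0.82, SE 0.11, adjusted p = 0.00567). The regulator gene Fxyd2 fell in MIWI -/KI (-0.98, SE 0.20, adjusted p = 0.0340), at intensities from 62 to 153 over all arrays. Fxyd2 lost this call without any 1 array other than MIWI -/KI replicate 1 (adjusted p from 0.0511 to 0.237), and was called in MIWI -/- without MIWI -/KI replicate 1 (0.0251) or 2 (0.0247). Atp1b3 was not called in MIWI -/KI without MIWI +/- replicate 1 (0.0732). Without MIWI -/KI replicate 1 the count in MIWI -/KI was 4 of 11, again with 2775 of 19938 genes called.

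Of 10 genes of sugar and lactate transport Emb, a partner protein of lactate carriers, fell in MIWI -/- (-0.83, SE 0.15, adjusted p = 0.0175) and in MIWI -/KI (-0.66, SE 0.15, adjusted p = 0.0440), but its intensities of 25 to 49 lay below the median of every array. Its first call was lost without either MIWI +/- array (adjusted p = 0.107 and 0.143 for replicates 1 and 2), either MIWI +/KI array (0.0548 and 0.0546) or MIWI -/- replicate 2 (0.132), and its second without any 1 array other than MIWI -/KI replicate 2 (from 0.0577 to 0.255). No gene passed in limma among 10 of the pyruvate dehydrogenase complex, 7 of the pentose phosphate pathway and 10 adenylate and creatine kinases in MIWI -/- (2, 0 and 1 at an unadjusted p under 0.05) or in MIWI -/KI against MIWI +/- (1, 0 and 3). Their medians lay between -0.101 and 0.075. Without MIWI -/KI replicate 1, 1 gene of the pentose phosphate pathway and 4 of the kinases were called in MIWI -/KI, with 2775 of 19938 genes called in place of 1243.

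**Figure D3:**
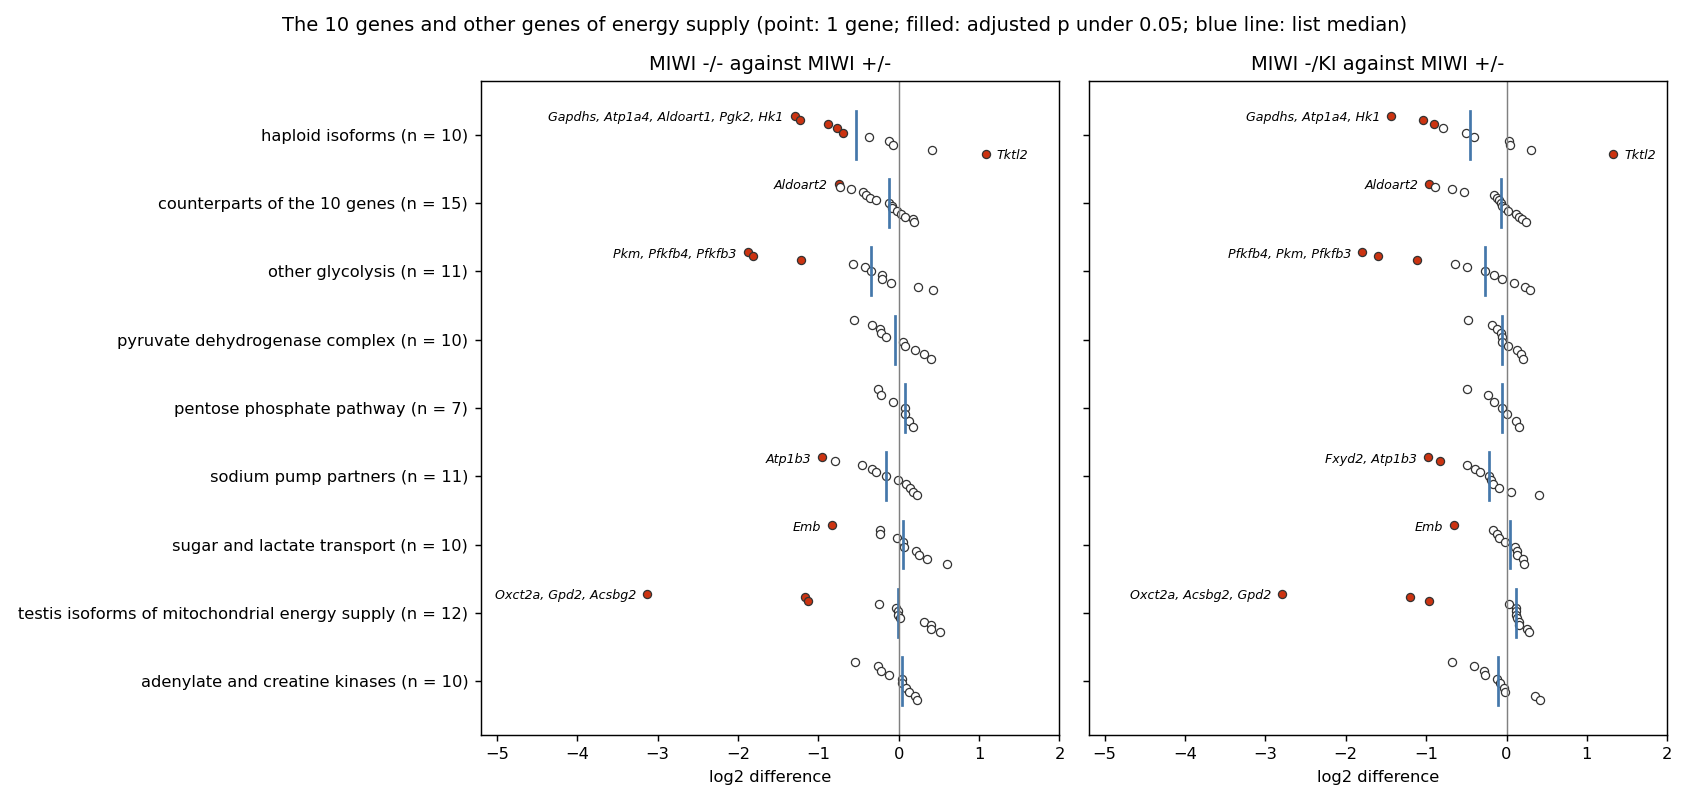
Log2 difference from MIWI +/- (horizontal axis) of every measured gene of 9 lists of energy supply (vertical axis, n measured genes in brackets), in MIWI -/- on the left and MIWI -/KI on the right, with filled points for adjusted p under 0.05, their names beside them, and a blue line at each list's median. Falls are spread over 6 of the 9 lists, Oxct2a is the lowest point in both panels, and Tktl2 is the single filled point above 0.

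The genes most alike to each called member over the 8 arrays, by Pearson r of log2 intensity among all named genes, were Osgin1 (0.9969) and Spatc1 (0.9919) for Gapdhs, and Tmem189 (0.9961) and Phospho1 (0.9945) for Hk1. For Atp1a4 they were Dgkh (0.9964) and Fam205c (0.9957), and for Tktl2 Tdrd9 (0.9935) and Xpr1 (0.9887). Pgk2 was followed most closely by Eif4a2 (0.9898) and Bzw1 (0.9841), and Aldoart1 by Hjv (0.9788) and Smkr-ps (0.9783). All arrays share the 4 genotypes, so any gene with a like order of genotypes ranks high, and the values describe these 8 arrays. Within the 10 genes, Gapdhs and Atp1a4 had r = 0.936, Hk1 and Atp1a4 r = 0.910, Gapdhs and Tktl2 r = -0.930, and Ldhc and Pdha2, neither of them called, r = 0.911.

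**Figure D4:**
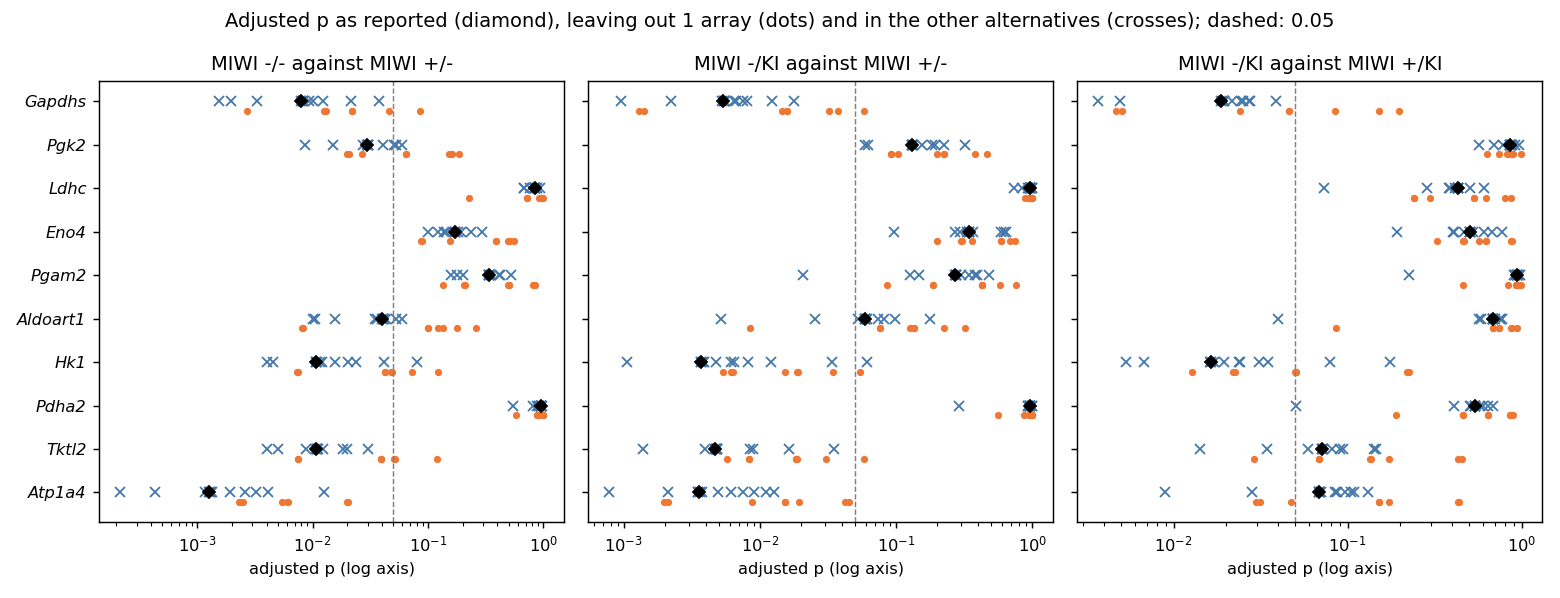
Adjusted p (horizontal log axis) of each gene (vertical axis) in 3 comparisons, as reported (diamonds), leaving out 1 array at a time (dots) and under the other alternatives (crosses), with a dashed line at 0.05. Atp1a4 stays left of the line in the first 2 panels in every setting, while Pgk2 and Aldoart1 lie on both sides of it in the first.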

How the data were processed

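The deposited table gives 1 linear intensity per transcript cluster for each of 8 arrays, made by the authors with RMA per the submitters' processing notes. No version of it is given there. The method includes a quantile step between arrays, which sets relative levels between arrays and can hide a change of all genes together. Log2 was taken before any test. In 8 cells, none of them of the 10 genes, a whole number over 100 times the rest of its row was treated as missing. Of 35512 clusters 21789 had 1 symbol in the platform annotation, 1621 several and 12102 none. No column lay outside the 8 arrays, and no 2 columns were identical.

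A linear model with 1 mean per genotype over all 8 arrays was fitted in limma 3.58.1 (R 4.3.3) with a trend of variance on intensity (4 residual degrees of freedom, 3.98 prior), using two-sided p-values adjusted by Benjamini-Hochberg over the 35512 clusters. The number of arrays limits the precision. The script was tested on simulated data with changes put into MIWI -/-. It called 28 of 67 clusters changed 2-fold, 55 of 67 changed 4-fold and 63 of 66 changed 8-fold, with 9 false calls. A 2-fold difference could therefore fail to pass in the simulation. Far fewer clusters were changed there than the 1222 genes called in MIWI -/- against MIWI +/-. The adjustment was thus not alike, and these rates are not those of the data, where a fall of 1.62-fold passed. The 10 genes, the lists and the motif letters were chosen with earlier results of these data known. Named from each list of energy supply were its genes called between 2 genotypes, up to 4 each way. The body cell counterparts were named too, and per called member the 2 genes of highest r. The alternatives were another quantile step, median centring, the replicate number as a block, no trend, array weights, only the groups compared, a filter on low levels, the mean of a gene's clusters, other treatment of the 8 cells, log2 of the value + 16, and leaving out each array. All 10 genes passed the filter. Deviations of same-numbered arrays correlated from -0.26 to 0.30 between genotypes, so the numbers were not taken to pair arrays.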

Additional observations from a re-analysis of the deposited data

How the results depend on the processing

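Of 1380 values of the 10 genes under the alternatives 36 lost a call, 32 gained one, 39 moved without a change of call and 1273 stayed the same. None that passed in either fit turned its direction. Some that did not pass crossed 0, such as Ldhc in MIWI -/-, from -0.12 to 0.07 without MIWI -/- replicate 2. The count of the 10 genes called changed by over 1.5 times in these cases. In MIWI -/- against MIWI +/- it was 6 and ranged from 1 to 6 when 1 array was left out. In MIWI -/KI against MIWI +/- it was 4 and ranged from 2 to 5. In MIWI -/KI against MIWI +/KI it was 2 and ranged from 0 to 4, was 4 with clusters under the median level left out, and 1 when a gene's clusters were averaged or the fit held the 2 genotypes alone. In MIWI +/KI against MIWI +/- it was 0, 4 with array weights, and 3 when the fit held the 2 genotypes alone. For loss of the wild-type allele over both backgrounds it was 4, and 6 with the filter on low levels. The replicate number as a block gave 5, 4 and 2 calls in the first 3 comparisons and ended the call of Aldoart1 in MIWI -/- (adjusted p = 0.0528); the block of numbers stands for no known pairing. An alternative chosen after seeing the data left out MIWI -/- replicate 2 and MIWI -/KI replicate 1 together: the counts were then 6, 6, 5 and 3 in these 4 comparisons, 5 for loss of the wild-type allele over both backgrounds, and 1 for the difference between the 2 effects (Atp1a4, 0.79, adjusted p = 0.0487), while 1745, 4624, 5749, 1450, 5290 and 232 of 19938 genes were called. Calls over all genes moved too, in MIWI -/- from 1222 to between 375 and 2043 when 1 array was left out. The cause was not tested.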
